A study of Mus musculus with 62 samples.

Results

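The 35 genes described here carry fatty acids into muscle and burn them in mitochondria. They were chosen by symbol, as the rows of the deposited expression table with the names of known uptake, activation and beta-oxidation genes. They are 35 of 47643 genes in the table and 35 of the 13529 that were tested, so every one of them passed the filter on low values. A fatty acid freed from circulating triglyceride crosses the fibre membrane, is bound by a carrier protein, is joined to coenzyme A, passes the mitochondrial membranes as a carnitine ester, and is then shortened by a repeating cycle of dehydrogenation, hydration, a second dehydrogenation and thiolysis. The electrons of the first step reach the respiratory chain through the electron transfer flavoprotein. The soleus, a postural muscle built largely of oxidative fibres, is known for its heavy use of this route.

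RNA was measured in soleus muscle of female mice labelled 2 months of age, at 2, 4, 6 and 8 weeks after injection of cells or a mock injection. The CAC groups received melanoma cells that the labels call cachectic, that is, cells that cause wasting of the host. NCAC stands for melanoma cells called non-cachectic and Con for mock injection. Each of the 12 groups holds 5 libraries, except CAC at 8 weeks with 7, which gives 62 libraries that the protocol text calls biological replicates. The tumour cell lines are not named, and the labels give no difference between the groups of a week other than the injection. The sample entries give the strain as C57BL6/J, the design text gives NCI Ath/nude, and the protocol text speaks of LLC cells, so the strain is not settled. The comparison of CAC with Con asks what a wasting tumour does to these genes, and NCAC against Con asks the same of a tumour without wasting.

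Levels are in TPM, a length-corrected share of each library, so that genes can be compared with each other and every value is relative to the total of its library. How deeply each library was sequenced is unknown. A difference is a difference of mean log2(TPM + 1), which understates the change of low genes, and a gene is called where limma's moderated test gives a Benjamini-Hochberg adjusted p under 0.05 over the 13529 tested genes. Each test used the libraries of the weeks compared. Mitochondrially encoded genes took 20.9% to 43.2% of the TPM of a library. At 6 weeks this share was 38.1% to 40.9% in Con, 35.3% to 41.7% in NCAC and 27.8% to 40.0% in CAC. Its part in the calls was not tested. Slow fibre markers summed to 34254 to 47187 TPM in Con at 6 weeks. Libraries of a group correlated at 0.971 to 0.992 at 2, 4 and 6 weeks and at 0.912 to 0.988 at 8 weeks. The fast myosin gene Myh4 exceeded 500 TPM in 3 libraries, replicate 4 of CAC at 2 weeks, replicate 3 of NCAC at 6 weeks and, at 2039.9 TPM, replicate 6 of CAC at 8 weeks. In whole muscle, fewer cells of a type and less RNA per cell cannot be told apart.

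In control muscle at 6 weeks the 35 genes together took 14488 ± 491 TPM (SD, n = 5), and 23 of them had a mean over 100 TPM. Fabp3, the cytosolic fatty acid binding protein of heart and muscle, stood first at 5889.6 ± 489 TPM (SD, n = 5) and made up 40.6 ± 2.38% of the summed level. Lpl, the lipase that frees fatty acids from circulating triglyceride, followed at 961 ± 76.9 TPM. Acadl, the long-chain acyl-CoA dehydrogenase, read 642 ± 38.8 TPM, the membrane transporter gene Cd36 589 ± 70.1 TPM and the thiolase gene Acaa2 575 ± 38.8 TPM. At the low end, 7 genes had a mean under 20 TPM, namely Acsl3, Cpt1a, Acsl4, Slc27a4, Acsl5, Acsl6 and Acad10. No library listed any of the 35 genes under 1 TPM.

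Promoter sequences are shown for Fabp3, Hadhb and Hadha, which had the widest falls in CAC against Con at 6 weeks, and for Acadm, because its window holds a nuclear receptor half-site. RefSeq's table for GRCm38.p6 held a window for 29 of the 35 genes. The letters below lie before the start of the gene in GENCODE M21, and for Fabp3 and Acadm also in RefSeq. Hadha and Hadhb, which encode the alpha and beta subunits of the mitochondrial trifunctional protein, lie head to head on chromosome 5 at 30118304 to 30155162 (minus strand) and 30155248 to 30184593 (plus strand). The 85 bases between their starts, chr5:30155163-30155247 on the plus strand, are the shared upstream sequence of both genes. Fabp3 lies on chromosome 4 at 130308595 to 130315463, and its 107 bases upstream are chr4:130308488-130308594 on the plus strand. Acadm, the medium-chain acyl-CoA dehydrogenase, lies on chromosome 3 at 153922357 to 153944632 on the minus strand, and the 250 bases chr3:153944644-153944893 are printed on that strand. Capitals mark a match to the nuclear receptor half-site AAGGTCA, here on the opposite strand.
Hadha-Hadhb: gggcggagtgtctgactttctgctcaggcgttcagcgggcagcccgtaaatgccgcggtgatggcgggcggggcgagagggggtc
Fabp3: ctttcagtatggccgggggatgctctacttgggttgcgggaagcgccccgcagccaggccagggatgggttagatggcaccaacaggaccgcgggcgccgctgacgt
Acadm: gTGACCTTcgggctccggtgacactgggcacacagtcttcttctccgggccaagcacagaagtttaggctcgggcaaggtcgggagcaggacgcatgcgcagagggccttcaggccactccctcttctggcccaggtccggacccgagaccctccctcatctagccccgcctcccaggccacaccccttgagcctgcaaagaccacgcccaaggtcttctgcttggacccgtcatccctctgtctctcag
In the 250 bases upstream, on either strand, the motif AAGGTCA occurred in 2 of the 29 genes with a window (6.90%), Acsl6 and Acadm, against 4.70% of 27025 genes. The shorter AGGTCA, which is part of it, occurred in 6 of 29 (20.7%), namely Cd36, Acsl6, Cpt1a, Acadvl, Acadm and Echs1, against 15.8% of all genes. Copies of AGGTCA paired in the same direction with 1 base between them, the direct repeat bound by PPAR receptors, occurred in 0 of 29 and in 0.0407% of all genes. A match describes letters in this window and says nothing of binding.

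At 2 and 4 weeks none of the 35 genes was called in any comparison. Among all tested genes, limma called 0% for CAC against Con, 0.503% for CAC against NCAC and 0.00739% for NCAC against Con at 2 weeks. The corresponding shares at 4 weeks were 1.03%, 5.84% and 0.00739%. Without adjustment, p was under 0.05 for 3 and 3 of the 35 genes when CAC was set against Con and then NCAC at 2 weeks, for 9 and 12 at 4 weeks, and for 0 in NCAC against Con at either week. At 4 weeks the lowest adjusted p for CAC against Con belonged to Echs1, the short-chain enoyl-CoA hydratase, with a difference of 0.19 (SE 0.06, adjusted p = 0.133). Acadm differed by -0.22 (SE 0.07, adjusted p = 0.0678) between CAC and NCAC. Fabp3 at 4 weeks read 5169.9, 5420.2, 5698, 5853 and 5464 TPM in Con and 4271, 3624, 5055, 4435 and 6298 TPM in CAC. The CAC values spread wider than the Con values. All CAC libraries lay below all of Con except 1, which lay above all of Con. Without that library, replicate 5 of CAC at 4 weeks, 2 genes were called lower in CAC against Con (Hadh and Fabp3) and 6 against NCAC (those 2 with Etfdh, Acadm, Hadha and Hadhb).

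At 6 weeks CAC muscle held less RNA of most genes of the oxidation cycle itself. Against Con, 16 of the 35 genes were lower and 1 was higher, where 3.87% of all tested genes were called lower and 23.5% higher. The falls took in 4 of 6 acyl-CoA dehydrogenases, 5 of 6 genes of hydration to thiolysis, 3 of 4 auxiliary enzymes, all 3 electron transfer genes and Fabp3. None of the 6 genes of the carnitine shuttle and its malonyl-CoA control passed the test, and neither did the uptake genes Lpl, Cd36, Slc27a1 and Slc27a4. The median difference of the 35 genes was -0.21, beside 0.16 over all tested genes. Rescaling the libraries by the median of ratios moved these medians to -0.40 and 0.01, with 1 of the 35 genes higher and 21 lower, and turned the split of all tested genes from 3181 higher and 524 lower to 1503 higher and 1538 lower. The 5 genes added by the rescaling were Crat, Cpt2, Slc27a1, Acad11 and Cpt1b. For 13 of the 35 genes every CAC library lay below every Con library, where 2.31% of tested genes did so, and for 1 every CAC library lay above, where 13.3% did so.

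**Figure D1:**
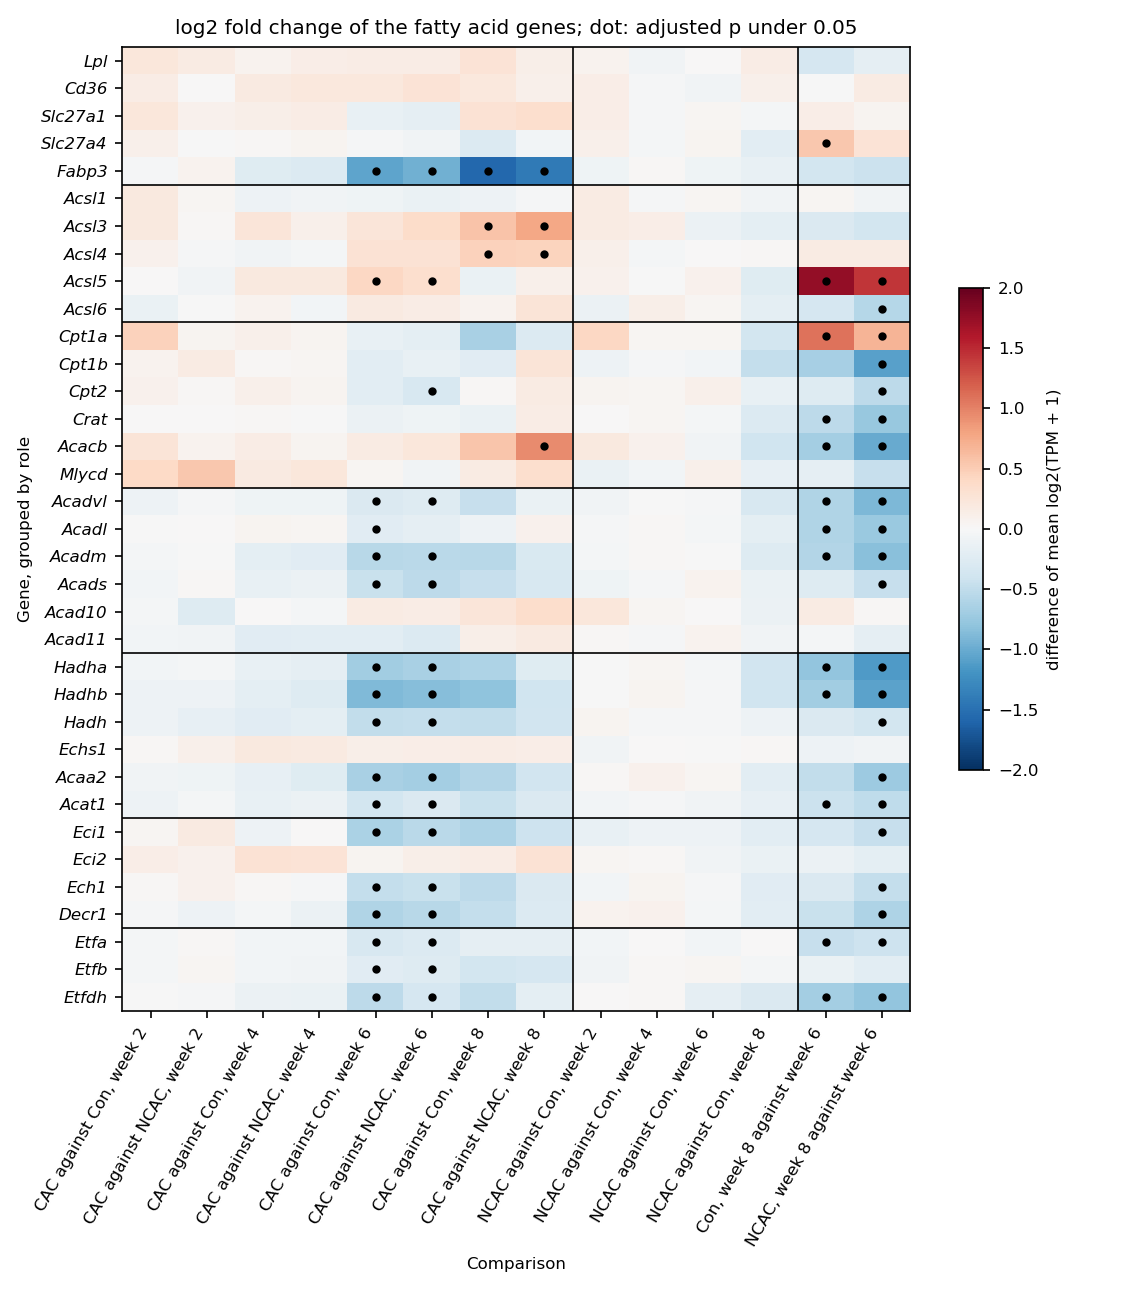
Differences of mean log2(TPM + 1) for the 35 genes (rows, from uptake at the top to electron transfer at the bottom, with lines between roles) in 14 comparisons (columns); blue is lower and red is higher in the group named first, and a dot marks an adjusted p under 0.05. The dots gather in the lower rows at 6 weeks, 16 lower and 1 higher for CAC against Con, and none stands under NCAC against Con at any week.

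Against NCAC at 6 weeks the count was the same, 16 lower and 1 higher, where 4.86% of tested genes were lower and 27.8% higher. This comparison shares its CAC libraries with the one against Con. Of its called genes, 16 were also called against Con, with Cpt2 in place of Acadl. After rescaling 0 were higher and 23 lower, and the split of all tested genes moved from 3758 higher and 658 lower to 1950 and 1859. Between NCAC and Con at 6 weeks limma called 0 of the 35 genes and 0% of all tested genes, and p was under 0.05 without adjustment for 0 of the 35. The summed level of the 35 genes was 14488 ± 491 TPM in Con, 14015 ± 725 TPM in NCAC and 10147 ± 1167 TPM in CAC (SD, n = 5 each). The CAC libraries, at 8774 to 11784 TPM, all lay below the NCAC libraries at 13236 to 14799.8 TPM. Fabp3 was a large part of this sum, 40.6 ± 2.38% in Con, 39.5 ± 1.14% in NCAC and 28.2 ± 3.38% in CAC. With Fabp3 left out, the summed levels of CAC and NCAC libraries overlapped.

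Of the 5 uptake genes the carrier gene was the one called at 6 weeks, and after rescaling Slc27a1 was called too. With the replicate number as a block in the fit, Cd36 was called higher against NCAC (0.28). Fabp3 read 6518, 5239, 5646, 6174 and 5870.0 TPM in Con and 5569, 5609, 5953, 5460.2 and 5101 TPM in NCAC. In CAC it read 2441, 3285, 3438, 2109 and 3144 TPM. The highest CAC library lay below the lowest library of either other group. Fabp3 fell by 1.05 (log2) against Con (SE 0.12, adjusted p = 1.95e-05, 5 of 5 CAC libraries below the Con mean) and by 0.96 against NCAC (SE 0.12, adjusted p = 3.88e-05, 5 of 5 below the NCAC mean). Its share of the summed level of the 35 genes was 40.6 ± 2.38% in Con, 39.5 ± 1.14% in NCAC and 28.2 ± 3.38% in CAC (SD, n = 5 each). Lpl read 932, 1096, 911, 949 and 916 TPM in Con and 1097, 1368, 918, 1081 and 927 TPM in CAC, and the groups overlapped, with a difference of 0.15 (SE 0.11, adjusted p = 0.273). Cd36, at 673, 568, 552, 504 and 649 TPM in Con and 744, 812, 700.0, 570.2 and 587 TPM in CAC, differed by 0.21 (SE 0.13, adjusted p = 0.216). Fatty acid transport proteins 1 and 4 are encoded by Slc27a1 and Slc27a4, which differed by -0.14 and -0.02.

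**Figure D2:**
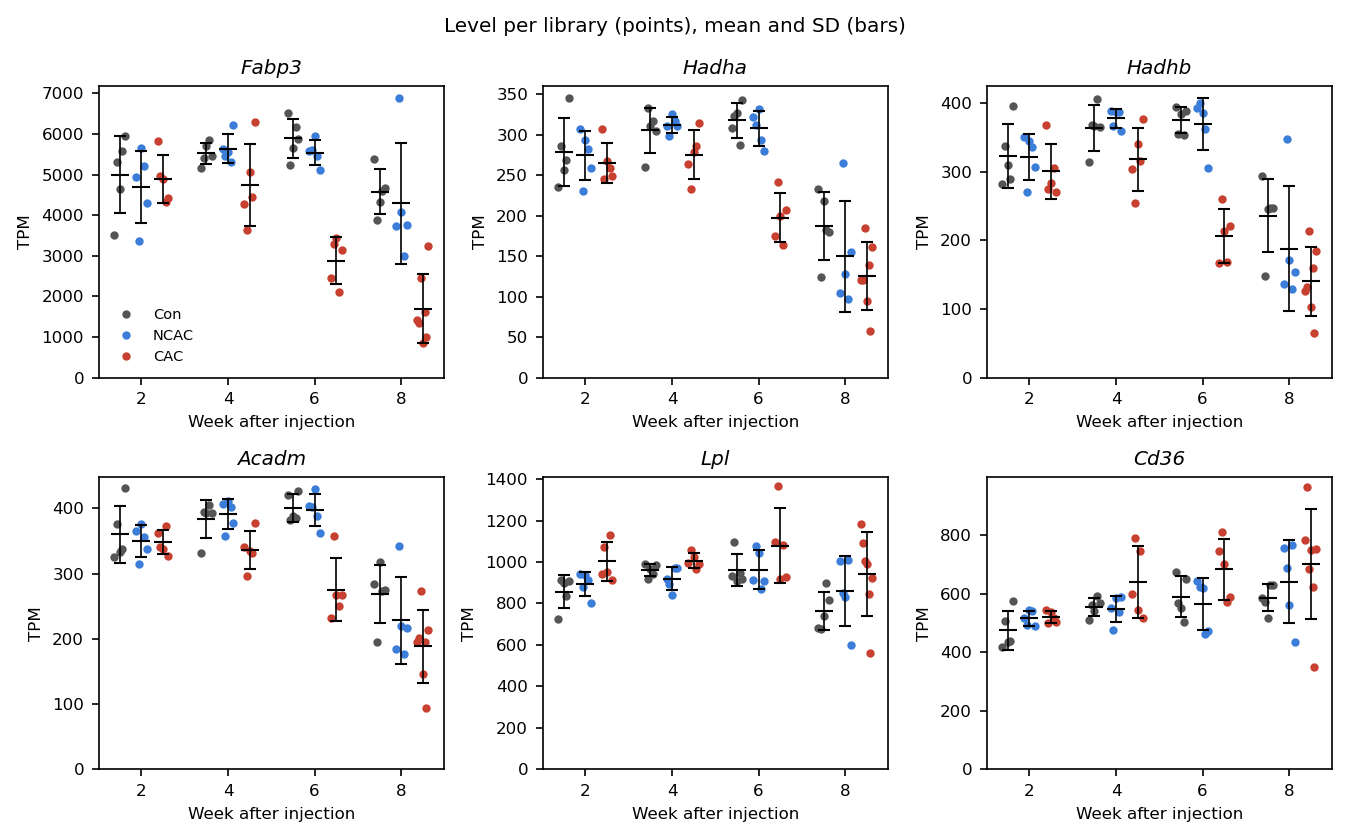
TPM of 6 genes in every library (points; grey Con, blue NCAC, red CAC) by week after injection, with the group mean and SD as bars. For Fabp3, Hadha and Hadhb the CAC points at 6 weeks lie below all Con and NCAC points of that week, while for Lpl and Cd36 the groups overlap at 6 and 8 weeks.

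Acyl-CoA synthetases activate fatty acids for use, and 1 of the 5 was called higher. Acsl5 read 6.11, 7.17, 7.35, 6.11 and 7.40 TPM in Con, 7.22, 7.58, 7.69, 7.75 and 6.16 TPM in NCAC and 10.3, 8.98, 9.63, 10.1 and 8.26 TPM in CAC. Every CAC library lay above every library of the other groups. The differences were 0.42 (SE 0.09, adjusted p = 0.00371) against Con and 0.34 (SE 0.09, adjusted p = 0.0101) against NCAC. In the fit of all 62 libraries neither passed, and after rescaling the one against NCAC did not. Acsl1, the main synthetase of muscle, at 193, 199, 161, 154 and 209 TPM in Con and 181, 189.9, 148, 164 and 172 TPM in CAC, differed by -0.09 (SE 0.12, adjusted p = 0.595). Acsl3, Acsl4 and Acsl6 differed by 0.24, 0.29 and 0.18 and were not called. In the fit of all 62 libraries Acsl4 was called in both comparisons (0.29 and 0.28), and so it was without replicate 5 of CAC (0.34 and 0.33). Without replicate 2 of NCAC, Acsl4 (0.36) and Acsl3 (0.47) were called against NCAC. Acsl1 made up 85.4 ± 1.83% of the TPM of the 5 genes in Con and 81.6 ± 1.80% in CAC (SD, n = 5 each).

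The carnitine shuttle moves long-chain acyl groups into mitochondria, with Cpt1b as the muscle form and Cpt1a as the liver form of the outer-membrane enzyme. Cpt1b read 394, 428, 418, 399 and 424 TPM in Con and 346, 381, 380.2, 314 and 363 TPM in CAC. All CAC libraries lay below all Con libraries, but the difference of -0.21 (SE 0.09, adjusted p = 0.0775) did not pass. Cpt1a read 7.61, 10.6, 10.1, 7.69 and 12.7 TPM in Con and 6.93, 9.65, 6.84, 10.7 and 9.16 TPM in CAC, overlapped between groups and differed by -0.15 (SE 0.16, adjusted p = 0.489). Its share of the 2 genes' TPM was 2.30 ± 0.424% in Con and 2.39 ± 0.592% in CAC. Cpt2, the inner-membrane enzyme, differed by -0.21 (SE 0.10, adjusted p = 0.138) from Con and by -0.32 (SE 0.10, adjusted p = 0.0301) from NCAC, of which the second passed. That call was lost in the fit of all 62 libraries and without replicate 1 or 4 of CAC or replicate 1, 2 or 3 of NCAC, the last of them rich in Myh4, with differences of -0.26 to -0.32. Acacb, which makes the CPT1 inhibitor malonyl-CoA at the mitochondrion, Mlycd, which degrades it, and Crat, the acetyltransferase, differed by 0.16, 0.04 and -0.12 from Con.

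Acyl-CoA dehydrogenases open the cycle, each for its own chain length. Acadm read 421, 382, 388, 385 and 427 TPM in Con and 404, 402, 429.8, 388 and 363 TPM in NCAC. In CAC it read 232, 358, 267, 250.01 and 268 TPM, with replicate 2 close to the other groups and still below them. Acadm fell by 0.56 (log2) against Con (SE 0.10, adjusted p = 0.000922) and by 0.54 against NCAC (SE 0.10, adjusted p = 0.00079). Acads, the short-chain enzyme, fell by 0.44 against Con. The long-chain and very-long-chain enzymes moved less, Acadl by -0.22 (SE 0.07, adjusted p = 0.0327) and Acadvl by -0.28 (SE 0.08, adjusted p = 0.0191), and neither passed in the fit of all 62 libraries. Leaving out 1 library ended the Acadvl call in 2 of 10 cases, replicate 1 or 4 of CAC (both -0.24), and the Acadl call in 7 of 10, all but replicates 2 and 5 of CAC and 4 of Con (-0.19 to -0.24). The less characterised Acad10 and Acad11 differed by 0.16 and -0.21 and were not called.

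The trifunctional protein, which hydrates, dehydrogenates and cleaves long-chain intermediates, fell in both subunits. Hadha read 309, 323, 327, 287 and 343 TPM in Con, 322, 311, 332, 293 and 280.0 TPM in NCAC and 175, 242, 200.1, 164 and 208 TPM in CAC. Hadhb read 395, 356, 384, 354 and 389 TPM in Con, 393, 399.6, 386, 363 and 305 TPM in NCAC and 167, 260.2, 213, 169 and 221 TPM in CAC. For both genes the CAC libraries lay below all others of the week. Against Con, Hadha fell by 0.69 (SE 0.10, adjusted p = 0.00013) and Hadhb by 0.88 (log2; SE 0.11, adjusted p = 6.27e-05). The differences from NCAC were -0.65 and -0.85. The part of the shared upstream sequence, printed above, in the levels of these neighbours was not tested. Over the 62 libraries the ratio of Hadhb to Hadha ran from 0.954 to 1.38. At 6 weeks this ratio was 1.10 to 1.28 in Con, 1.09 to 1.28 in NCAC and 0.954 to 1.08 in CAC, and the CAC values lay below the others. Such a ratio within a library does not depend on how libraries are scaled.

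Acaa2, the thiolase of the last step, read 536, 605, 588, 533 and 615 TPM in Con and 286, 406, 399, 323 and 442 TPM in CAC, with no overlap, and fell by 0.65 (SE 0.11, adjusted p = 0.00069). Hadh, the dehydrogenase for shorter chains, and the thiolase gene Acat1, which also serves ketone body metabolism, fell by 0.50 and 0.36. The one gene of these steps that was not called was Echs1, at 86.5, 87.1, 89.8, 78.7 and 85.3 TPM in Con and 84.8, 111, 88.9, 94.5 and 87.5 TPM in CAC, with a difference of 0.12 (SE 0.07, adjusted p = 0.225). Auxiliary enzymes, which reposition double bonds of unsaturated fatty acids, split in the same way. Eci1, a mitochondrial enoyl-CoA isomerase, read 438, 416, 404, 417 and 469 TPM in Con and 237, 302, 279, 271 and 292 TPM in CAC and fell by 0.64 (SE 0.08, adjusted p = 4.09e-05). Decr1, the dienoyl-CoA reductase, read 133, 128, 128, 111 and 128 TPM in Con and 66.5, 104, 81.5, 73.0 and 90.9 TPM in CAC and fell by 0.60 (SE 0.10, adjusted p = 0.000885). In both, every CAC library was below every Con library. Ech1, a dienoyl-CoA isomerase, fell by 0.47, while Eci2 differed by 0.05 and was not called.

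All 3 electron transfer genes were called lower against Con. Etfdh, the oxidoreductase that passes the electrons to ubiquinone, read 113, 98.4, 99.6, 95.8 and 108 TPM in Con, 101, 99.4, 94.7, 82.2 and 76.8 TPM in NCAC and 65.3, 83.3, 74.1, 56.8 and 80.4 TPM in CAC. The CAC libraries lay below Con, whereas 2 of them reached the range of NCAC. Etfdh fell by 0.52 against Con (SE 0.11, adjusted p = 0.00303) and by 0.34 against NCAC (SE 0.11, adjusted p = 0.0249). The call against NCAC was lost in the fit of all 62 libraries and without replicate 1 or 4 of CAC or replicate 1 or 2 of NCAC, with differences of -0.31, -0.26, -0.30 and -0.30. The flavoprotein subunit genes Etfa and Etfb fell by 0.32 and 0.22 against Con. The Etfb call was lost in the fit of all 62 libraries and without replicate 1 or 4 of CAC or any of replicates 2 to 5 of Con, with differences of -0.19 to -0.23. Leaving out any 1 library of the groups compared gave 14 to 18 called genes of the 35 against Con and 13 to 18 against NCAC.

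Other mitochondrial genes gave a scale for these falls. Of 17 genes of the TCA cycle, 0 were higher and 5 lower in CAC than in Con at 6 weeks, with a median difference of -0.20, Sdhc (-0.39) and Mdh2 (-0.32) among them. Of 35 subunit genes of complex I of the respiratory chain, 1 was higher and 9 lower, with a median of -0.16. After rescaling these counts were 0 higher and 14 lower of 17, and 0 higher and 27 lower of 35. The medians were -0.57 for hydration to thiolysis, -0.54 for the auxiliary enzymes, -0.32 for electron transfer, -0.25 for the dehydrogenases, -0.14 for the carnitine shuttle, -0.02 for uptake and 0.24 for the synthetases. These are descriptions of lists, and the difference between lists was not tested.

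**Figure D3:**
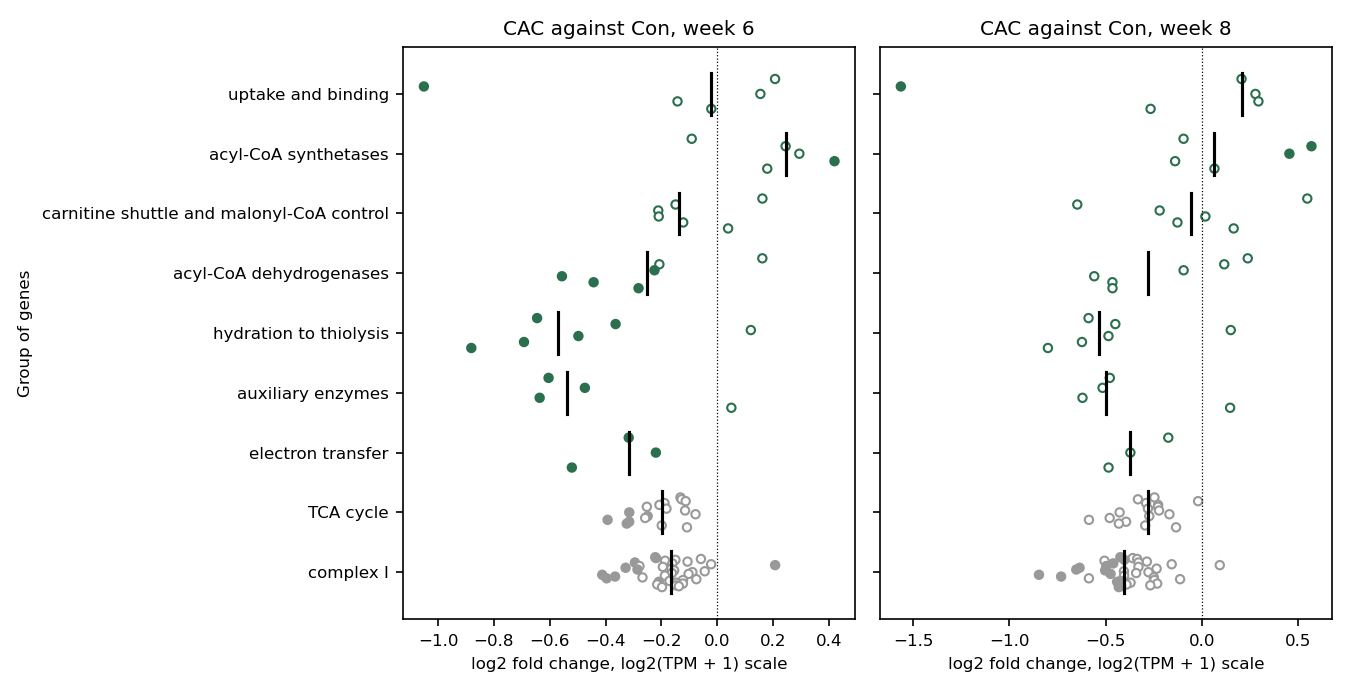
Difference between CAC and Con in mean log2(TPM + 1) for each gene (points; filled where adjusted p is under 0.05) by role (green) and in the TCA cycle and complex I (grey), at 6 weeks (left) and 8 weeks (right, on a wider axis); vertical bars are medians. Hydration to thiolysis has medians of -0.57 and -0.54 at 6 and 8 weeks, with filled points at 6 weeks and open ones at 8.

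Genes of neighbouring lipid routes moved in several ways in CAC against Con at 6 weeks. Among all tested genes, 23.5% were called higher and 3.87% lower. Of 3 tested genes of carnitine transport and synthesis, 0 were higher and 2 lower, the mitochondrial carnitine carrier Slc25a20 (-0.32) and the plasma membrane transporter Slc22a5 (-0.37). Of 14 genes of lipid droplets and lipolysis, 5 were higher and 1 lower, and after rescaling 3 and 3. The droplet coat genes Plin4 and Plin3 rose by 1.00 and 0.85, the triglyceride synthesis gene Dgat1 by 0.53 and the lipase gene Lipe by 0.48. The one that fell was the acyltransferase gene Gpam (-0.92), named after its value was seen. Of 9 genes of fatty acid synthesis, 6 were higher and 0 lower, with Srebf1 up by 0.83, Acaca by 1.00, Elovl5 by 0.36 and Acly by 0.44; after rescaling 2 of the 9 were called. Of 15 tested peroxisomal genes 2 were higher and 1 lower, and after rescaling 0 and 5. Acyl-CoA thioesterases release free fatty acids, and of 7 thioesterase genes 1 was higher and 1 lower, Acot9 (0.67) and Acot2 (-0.89). Of 16 genes of the PPAR and ERR receptors, their coactivators and targets, 2 were higher, Rxra (0.37) and Pparg (0.42), and 0 lower. After rescaling 0 were higher and 1 lower. In the peroxisomal, thioesterase and receptor lists the share of higher genes lay below that of all tested genes.

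Markers of fibres and of other cells were read beside these results. For scale, 23.5% of all tested genes were called higher and 3.87% lower in CAC than in Con at 6 weeks. At 6 weeks 0 of 10 slow and 0 of 10 fast fibre markers were called between CAC and Con, with sums of 34254 to 47187 TPM in Con and 34204 to 55430.3 TPM in CAC for the slow list, and of 10441 to 24718 and 8653 to 24231 TPM for the fast list. Of 11 endothelial markers 6 were higher and 1 lower, and their sum was 511 to 604 TPM in Con and 720.4 to 889 TPM in CAC. Adipocyte markers were higher for 5 of 11, with sums of 5217 to 8917 and 4910.4 to 10766 TPM, largely Car3, which slow fibres also express. Of that list Adipoq differed by 1.07, and Ucp1 was under 1 TPM in all 62 libraries. Macrophage markers were higher for 7 of 12, with sums of 139 to 171 and 233 to 298 TPM. Tendon markers were lower for 3 of 10, at 335 to 778 and 274 to 557 TPM. Markers of fibro-adipogenic progenitors were higher for 2 and lower for 1 of 10, those of neutrophils higher for 4 of 4 tested and those of Schwann cells for 1 of 7. The part of these cells in the values of the 35 genes was not tested.

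At 8 weeks fewer of the 35 genes passed. Against Con, CAC had 2 genes higher and 1 lower, where 6.31% of tested genes were higher and 4.26% lower. Against NCAC it had 3 higher and 1 lower, where 19.3% were higher and 2.68% lower. NCAC against Con had 0 of the 35 genes and 0% of tested genes called, with 0 of the 35 at an unadjusted p under 0.05. After rescaling the counts were 2 higher and 2 lower against Con and 1 higher and 3 lower against NCAC, and the split of all tested genes moved from 854 higher and 576 lower to 797 and 958, and from 2606 and 362 to 697 and 819. The median of the 35 genes was -0.17 against Con and -0.02 against NCAC, beside 0.00 and 0.16 over all tested genes. In the fit of all 62 libraries, 18 genes were called against Con and 11 against NCAC. That fit gives all weeks 1 spread, though the spread differs between weeks. It was not the main fit because earlier work on these data found many false calls from it at 8 weeks. In the fit of 8 weeks alone, 8 genes were called against Con without replicate 3 of CAC, and 1 without replicate 3 of Con.

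Fabp3, low in CAC at 6 weeks, was low at 8 weeks too. It read 5394, 3884, 4327, 4605 and 4677 TPM in Con and 3729, 6879.6, 4071, 3002 and 3761 TPM in NCAC. The 7 CAC libraries had a lowest of 845, a median of 1407 and a highest of 3243 TPM. All 7 lay below every Con library, and 6 of the 7 lay below every NCAC library. Fabp3 fell by 1.56 (log2) against Con (SE 0.29, adjusted p = 0.00435, 7 of 7 CAC libraries below the Con mean) and by 1.42 against NCAC (SE 0.29, adjusted p = 0.00426, 7 of 7 below the NCAC mean). It made up 21.3 ± 6.38% (SD, n = 7) of the summed level of the 35 genes in CAC, 40.7 ± 2.33% in Con and 40.0 ± 3.54% in NCAC (SD, n = 5 each). The other uptake genes did not pass. Lpl had a lowest of 559.7, a median of 989 and a highest of 1186 TPM in CAC, beside 681, 679, 741, 897 and 816 TPM in Con, a difference of 0.28 (SE 0.18, adjusted p = 0.342). Cd36 had a lowest of 348, a median of 749 and a highest of 966 TPM, beside 584, 572, 516, 628 and 629 TPM in Con, a difference of 0.21 (SE 0.21, adjusted p = 0.566).

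Of the synthetases, 2 rose in CAC at 8 weeks, where 6.31% of all tested genes were higher against Con and 19.3% against NCAC. Acsl3, found on lipid droplets and the endoplasmic reticulum, read 9.86, 7.03, 9.30, 8.67 and 12.2 TPM in Con and 7.38, 8.36, 8.77, 6.93 and 8.45 TPM in NCAC, and CAC had a lowest of 9.72, a median of 13.9 and a highest of 21.9 TPM. All CAC libraries lay above all NCAC libraries, and 1 lay within the range of Con. The differences were 0.57 (SE 0.15, adjusted p = 0.0253) against Con and 0.77 (SE 0.15, adjusted p = 0.00319) against NCAC. Acsl4, which prefers arachidonic acid, read 9.63, 8.80, 7.16, 9.13 and 7.95 TPM in Con and 10.4, 8.91, 7.64, 8.73 and 7.57 TPM in NCAC, and CAC had a lowest of 9.44, a median of 12.2 and a highest of 14.8 TPM. It rose by 0.45 (SE 0.11, adjusted p = 0.0162) against Con and by 0.44 (SE 0.11, adjusted p = 0.0112) against NCAC, and the lowest CAC library lay within the range of both groups. The Acsl3 call against Con was lost without replicate 2, 3 or 4 of Con, with differences of 0.48, 0.57 and 0.55. The Acsl4 call against Con was lost without replicate 3 of Con (0.40), and that against NCAC after rescaling (0.24). Acsl1 and Acsl5 differed from Con by -0.10 and -0.14.

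Acacb was higher in CAC than in NCAC at 8 weeks. It read 34.7, 65.2, 66.1, 27.5 and 44.4 TPM in NCAC and 72.8, 35.9, 72.1, 68.2 and 59.5 TPM in Con, and CAC had a lowest of 46.7, a median of 93.3 and a highest of 119.8 TPM. Of the CAC libraries, 6 of 7 lay above every NCAC and Con library. The differences were 0.95 (SE 0.25, adjusted p = 0.014) against NCAC and 0.55 (SE 0.25, adjusted p = 0.17) against Con, of which the first passed, though not after rescaling (0.74). In the fit of all 62 libraries, with the limit given above for 8 weeks, the second passed too. Without replicate 6 of CAC, the library rich in Myh4, 7 genes were called against NCAC, these 4 with Acad10, Slc27a1 and Eci2. Cpt1a had a lowest of 8.13, a median of 14.0 and a highest of 20.5 TPM in CAC and 27.0, 24.5, 17.8, 17.5 and 21.7 TPM in Con, a difference of -0.65 (SE 0.25, adjusted p = 0.105). It passed after rescaling (-0.68) and, with the same limit, in the fit of all 62 libraries (-0.65). Cpt1b had a lowest of 99.7, a median of 258 and a highest of 338 TPM in CAC and 343, 150.3, 312, 289.9 and 258 TPM in Con, a difference of -0.22 (SE 0.36, adjusted p = 0.746).

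**Figure D4:**
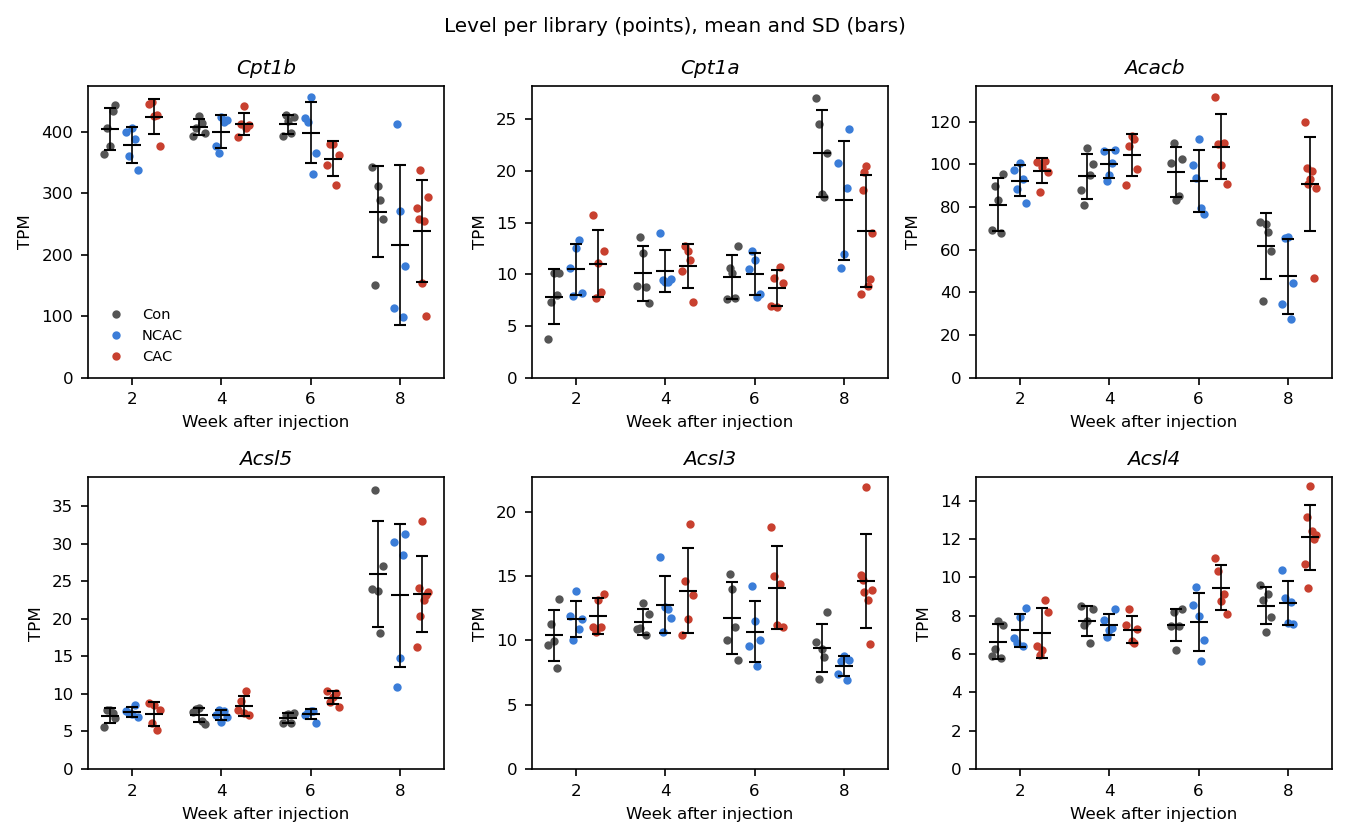
TPM of Cpt1b, Cpt1a, Acacb, Acsl5, Acsl3 and Acsl4 in every library (points; grey Con, blue NCAC, red CAC) by week, with the group mean and SD as bars. The Con points of Acsl5 and Cpt1a at 8 weeks lie above all Con points of 6 weeks, and the Acacb points of CAC at 8 weeks lie above those of NCAC and Con except for 1 at 46.7 TPM.

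Genes of the cycle gave differences at 8 weeks that did not pass in the fit of that week. In the fit of all 62 libraries Hadha, Hadhb, Acadm, Eci1, Acaa2, Decr1, Etfdh, Hadh, Acads, Ech1, Etfb, Acat1 and Acadvl were called lower. As said above, that fit had given many false calls at this week in earlier work on these data. Hadha had a lowest of 57.5, a median of 121 and a highest of 184 TPM in CAC and 233, 124, 218, 183 and 179 TPM in Con, a difference of -0.62 (SE 0.28, adjusted p = 0.159). Hadhb had a lowest of 64.6, a median of 132 and a highest of 214 TPM in CAC and 293, 148, 246, 247 and 247 TPM in Con, a difference of -0.80 (SE 0.29, adjusted p = 0.0809). Acadm had a lowest of 93.6, a median of 196 and a highest of 274 TPM in CAC and 284, 195, 318, 273 and 275 TPM in Con, a difference of -0.56 (SE 0.22, adjusted p = 0.119). In each of these 3 genes the CAC range overlapped that of Con. Eci1 differed by -0.62 (SE 0.21, adjusted p = 0.0614), Acaa2 by -0.59, Decr1 by -0.48 and Etfdh by -0.48. Without replicate 3 of CAC, Hadhb (-0.92) and Eci1 (-0.71) were called, with Hadh, Ech1 and Acat1. Without adjustment p was under 0.05 for 17 of the 35 genes against Con, of 3617 among all 13529. A test of whether the difference between CAC and Con moved from 6 to 8 weeks called 0 of the 35 genes and 0% of tested genes, and without adjustment 0 of the 35 and 1463 of all had p under 0.05. For Hadha the change was 0.07 (SE 0.32) and for Fabp3 -0.51 (SE 0.34).

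From 4 to 6 weeks the same test of change called 0 of the 35 genes too, and 0.00739% of tested genes. The lowest adjusted p among the 35 was that of Fabp3, whose difference between CAC and Con moved by -0.81 (SE 0.17, adjusted p = 0.202), followed by Eci1 at -0.54 (SE 0.12, adjusted p = 0.213) and Hadhb at -0.68 (SE 0.15, adjusted p = 0.213). Without adjustment p was under 0.05 for 17 of the 35 genes and for 1218 of all tested genes. Without replicate 2 of CAC at 6 weeks 4 genes were called, Decr1, Fabp3, Hadha and Hadhb, and without replicate 2 of CAC at 4 weeks 2, Fabp3 and Hadhb. Thus calls at 6 weeks and none at 4 weeks are not in themselves a tested difference between these weeks.

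Complex I subunit genes were lower for 14 of 35 in CAC against Con at 8 weeks (median -0.40) and for 21 of 35 against NCAC, while TCA cycle genes were called for 0 of 17 in both (after rescaling 1 was lower against NCAC). Among the neighbouring routes, Plin3 (0.80) and the phosphatidate phosphatase gene Lpin1 (0.77) were higher of 14 droplet genes against Con, of which 1 was called after rescaling. Carnitine transport, peroxisomal oxidation, thioesterases and fatty acid synthesis had no gene called against Con. Against NCAC, Ppard (0.69), Rxra (0.50) and Lpin1 (0.96) were higher of 16 receptor and target genes. This count lay near the share of all tested genes called higher in that comparison, 19.3%. Slow fibre markers Myl2 (-0.91) and Tnni1 (-0.81) were lower and the fast fibre gene Atp2a1 (1.24) higher in CAC than in Con, of 10 markers each, and after rescaling the fast gene was not called. The summed slow markers were 15319.7 to 38691 TPM in CAC and 28699.6 to 34472 TPM in Con. Endothelial markers were higher for 3 and lower for 1 of 11, with sums of 643 to 1121 and 571 to 788 TPM, and tendon markers lower for 5 of 10. Macrophage markers were called for 0 of 12, at 1065 to 2879 TPM in CAC and 1242 to 2423 TPM in Con. Their part in the values of the 35 genes was not tested.

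Muscle of mice without wasting also differed between weeks. In Con at 8 against 6 weeks, 3 of the 35 genes were higher and 10 lower, where 47.5% of tested genes were higher and 5.43% lower. In NCAC, 2 were higher and 19 lower, where 37.1% and 14.4% were. The medians of the 35 genes were -0.29 in Con and -0.46 in NCAC, beside 0.29 and 0.15 over all tested genes. After rescaling the 35 genes gave 2 higher and 27 lower in Con and 2 higher and 25 lower in NCAC, and all tested genes 3953 higher and 3496 lower in Con and 4140 and 3976 in NCAC, from 6433 and 734 and from 5019 and 1948. The labels separate these libraries by week alone, so age, time since injection and the handling of a week cannot be told apart.

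The rises were in minor forms. Acsl5 read 24.0, 37.2, 23.7, 18.0 and 27.0 TPM in Con and 30.2, 10.9, 14.7, 28.4 and 31.3 TPM in NCAC at 8 weeks, above all values given for 6 weeks, and rose by 1.75 (SE 0.21, adjusted p = 1.56e-07) in Con and by 1.43 (SE 0.21, adjusted p = 3.22e-06) in NCAC. Cpt1a read 27.0, 24.5, 17.8, 17.5 and 21.7 TPM in Con and 20.8, 10.6, 11.9, 18.3 and 24.1 TPM in NCAC. It rose by 1.08 (SE 0.23, adjusted p = 0.000291) in Con, where the weeks did not overlap, and by 0.68 (SE 0.23, adjusted p = 0.0162) in NCAC, where they did. The NCAC call was lost without replicate 1 or 5 of NCAC at 8 weeks (0.60 and 0.55). Cpt1a made up 8.03 ± 3.50% of the TPM of Cpt1a and Cpt1b in Con at 8 weeks, against 2.30 ± 0.424% at 6 weeks (SD, n = 5 each). Slc27a4 read 5.87, 6.66, 7.97, 6.90 and 7.32 TPM at 6 weeks and 10.3, 11.3, 10.8, 9.65 and 10.6 TPM at 8 weeks in Con, with no overlap, and rose by 0.54 (SE 0.14, adjusted p = 0.00193); after rescaling this call was lost (0.21).

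Falls between these weeks included genes of the carnitine shuttle and its control. Acacb, 101, 110.2, 83.5, 85.4 and 103 TPM in Con at 6 weeks, was at 72.8, 35.9, 72.1, 68.2 and 59.5 TPM at 8 weeks and fell by 0.67 (SE 0.22, adjusted p = 0.0113) in Con and by 1.01 (SE 0.22, adjusted p = 0.000421) in NCAC. Crat fell by 0.52 in Con and 0.76 in NCAC. Cpt1b read 424, 417, 457, 331 and 366 TPM at 6 weeks and 113, 413, 271, 99.2 and 183 TPM at 8 weeks in NCAC, where replicate 2 stayed within the range of 6 weeks, and fell by 1.08 (SE 0.30, adjusted p = 0.00341). Its difference in Con, -0.66 (SE 0.30, adjusted p = 0.0615), did not pass, but it was called after rescaling (-1.03), in the fit of all 62 libraries, without the libraries rich in Myh4 (both -0.66) and without replicate 1 of Con at 8 weeks (-0.76). Hadha read 104, 265, 128, 97.6 and 155 TPM and Hadhb 136, 348, 171, 129.8 and 155 TPM in NCAC at 8 weeks, replicate 2 the highest in both. Hadha fell by 0.79 in Con and 1.13 in NCAC, Hadhb by 0.70 and 1.07, Acadm by 0.59 and 0.84 and Etfdh by 0.69 and 0.79. Fabp3, the widest fall in CAC, was not called in either group, at -0.37 (SE 0.25, adjusted p = 0.217) in Con and -0.43 (SE 0.25, adjusted p = 0.151) in NCAC, though it was called in Con after rescaling (-0.74). Without replicate 2 of Con at 8 weeks the calls of Acadm (-0.48), Hadhb (-0.54), Acacb (-0.49) and Acadvl in Con were lost. Without replicate 2 of NCAC at 8 weeks 23 genes were called in NCAC, Fabp3 (-0.61) and Mlycd added.

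Other cell types moved with these weeks. In Con at 8 against 6 weeks, 9 of 11 adipocyte, 12 of 12 macrophage and 9 of 10 fibro-adipogenic markers were higher, and 3 of 10 slow fibre markers were lower. In NCAC these counts were 9, 12, 9 and 8. In Con the summed macrophage markers were 139 to 171 TPM at 6 weeks and 1242 to 2423 TPM at 8 weeks. Those of fibro-adipogenic progenitors were 1254 to 1569 and 6019.6 to 13247 TPM in Con, and those of adipocytes 5217 to 8917 and 6971 to 21761 TPM. The summed slow fibre markers of Con were 34254 to 47187 and 28699.6 to 34472 TPM. TCA cycle genes were lower for 14 of 17 (median -0.42). Complex I genes were higher for 15 and lower for 5 of 35, and after rescaling higher for 1 and lower for 11. Fatty acid synthesis genes were higher for 8 of 9, among them Scd1 (3.43) and Srebf1 (1.36), and droplet genes for 6 of 14, among them Plin2 (1.05). Among all tested genes 47.5% were higher and 5.43% lower in Con. The counts of higher droplet genes and higher complex I genes lay near the first share. The part of these cells in the changes of the 35 genes was not tested.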

How the data were processed

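The 62 soleus libraries were made with a stranded mRNA kit, per the labels' protocols. The authors deposited TPM values for 47643 genes. The submitters' processing notes name the build mm10. Which aligner and which quantifier were used is not stated in those sources, and the depth of each library is unknown. TPM has the same sum in every library, so a rise of some genes lowers the others.

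From these values log2(TPM + 1) was fitted with limma 3.58.1 (R 4.3.3; 1 mean per group, variance trend) on the libraries of the weeks compared, for 13529 genes with at least 1 TPM in at least 5 libraries, with Benjamini-Hochberg adjustment over all of them. The procedure was tested on simulated data. Values per library are given for up to 5 called members in each direction with the widest differences (CAC comparisons of weeks 6 and 8) or up to 3 (others), and for Lpl, Cd36, Fabp3, Cpt1a, Cpt1b, Acsl1, Acadm, Hadha and Etfdh; of other lists, up to 4 genes with the smallest adjusted p are named. The members and gene lists were chosen with earlier results of these data known. Alternatives were a pseudocount of 0.1, no filter, median-of-ratios rescaling, a fit of all 62 libraries, a replicate block, omission of the 3 libraries in which Myh4 reached 500 TPM, and leaving out each library in turn. No 2 libraries held identical values. P-values measure the spread between these animals only.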

Additional observations from a re-analysis of the deposited data

Results flagged for a closer look

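Of 216 sets of libraries examined (18 named genes in 12 groups), 16 held 1 library far from the others by Dixon's criterion, where chance gives about 1 in 20. Replicate 2 of NCAC at 8 weeks was the high library for 6 genes. Its Fabp3 level was 6879.6 TPM (others 3002 to 4071), its Acsl1 level 214 TPM (others 165 to 176), its Acadm level 343 TPM (others 176 to 219.9), its Etfdh level 92.2 TPM (others 37.5 to 52.3), its Hadhb level 348 TPM (others 129.8 to 171) and its Decr1 level 121 TPM (others 59.2 to 76.9). It also had the lowest summed markers of macrophages, 435 TPM (others 1454 to 3261), of fibro-adipogenic progenitors, 3393 TPM (others 4721 to 12997), and of adipocytes, 8033 TPM (others 13429.6 to 27050.0), and the highest of fast fibres, 23559 TPM (others 6325 to 20246). Their part in the levels of these genes was not tested.

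Replicate 6 of CAC at 8 weeks, the library with the most Myh4, had the lowest Acacb level, 46.7 TPM (others 89.1 to 119.8). Replicate 2 of CAC at 6 weeks had the highest Acadm level, 358 TPM (others 232 to 268), and replicate 3 of that group the highest Slc27a4 level, 8.16 TPM (others 6.08 to 6.64).

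In Con, Lpl was highest in replicate 2 at 6 weeks, 1096 TPM (others 911 to 949), Acadm lowest in replicate 1 at 4 weeks, 332 TPM (others 392 to 406), Decr1 highest in replicate 5 at 2 weeks, 137 TPM (others 99.8 to 108), and lowest in replicate 4 at 6 weeks, 111 TPM (others 128 to 133), and Slc27a4 highest in replicate 3 at 4 weeks, 8.24 TPM (others 7.18 to 7.48). In NCAC, Cpt1a was highest in replicate 1 at 4 weeks, 14.0 TPM (others 9.26 to 9.56), and Decr1 lowest in replicate 2 at 2 weeks, 93.7 TPM (others 118 to 126).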

How the results depend on the processing

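The number of the 35 genes called moved by more than 1.5 times in these settings. Median-of-ratios rescaling gave 1 for CAC against NCAC at 4 weeks, where 0 were called, and 29 for Con at 8 against 6 weeks, where 13 were. The fit of all 62 libraries gave 18 for CAC against Con and 11 for CAC against NCAC at 8 weeks, from 3 and 4. That fit uses 1 spread for all weeks and gave many false calls at 8 weeks in earlier work on these data. Leaving out the libraries rich in Myh4 gave 7 for CAC against NCAC at 8 weeks. The cause of these moves was not tested.

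Leaving out each library in turn gave 0 to 2 for CAC against Con and 0 to 6 for CAC against NCAC at 4 weeks, 14 to 18 and 13 to 18 at 6 weeks, and 1 to 8 and 4 to 7 at 8 weeks. It gave 9 to 15 for Con and 18 to 23 for NCAC at 8 against 6 weeks, and 0 to 4 for the change of the CAC and Con difference from 4 to 6 weeks. The other comparisons had 0 throughout.

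Among 44 called differences of named genes, 718 refits turned none around. Calls were lost in 3 refits with all 62 libraries, 4 with rescaling and 17 that left out 1 library. Eci1 in NCAC at 8 against 6 weeks was lost without replicate 3 or 5 of week 6 (-0.44 and -0.43) or 1 or 4 of week 8 (-0.37 and -0.36).

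The replicate numbers are shared between groups, but same-numbered libraries deviated together in no steady way (correlations of -0.666 to 0.477). With the number as a replicate block, 17 of the 35 genes were called for CAC against Con and 19 for CAC against NCAC at 6 weeks, 3 and 5 at 8 weeks, 19 for Con and 22 for NCAC at 8 against 6 weeks, and 0 elsewhere. The 6 genes that the block added in Con included Cpt1b (-0.66). For CAC against NCAC at 6 weeks the block added Cd36 (0.28) and Acad11 (-0.28). Because TPM carries no depth, precision at low levels cannot be given.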
